A study of Mus musculus with 38 samples.

Results

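Neuropeptide Y (Npy) and the Y receptors Npy1r, Npy2r and Npy5r were taken by symbol from the counts of every library, as 4 of the 23420 genes counted. Each library held RNA of 10 cells, aspirated as granule cells from the hippocampal dentate gyrus of 1 mouse. Each of 19 mice gave a dVenus+ and a neighboring dVenus- library, 38 in all. All mice were adult C57BL/6J animals carrying Arc::dVenus, a transgene in which the promoter of the activity gene Arc drives a destabilized fluorescent protein, so dVenus+ cells are cells with an active Arc promoter. Fear conditioned mice (FC, n = 12) explored a context and received tone and footshock pairings, no-shock mice (NS, n = 4) went through the same procedure without shocks, and home-cage mice (HC, n = 3) were not trained. Cells of FC and NS mice were collected the day after training. The within-mouse comparison of dVenus+ with dVenus- cells asks how cells that had the Arc promoter on differ from their neighbors, and its repeat in NS and HC mice asks what accompanies exposure or the reporter without shock.

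Neuropeptide Y is a short amidated peptide cut from a precursor and stored in dense core vesicles, and it acts on receptors that couple to inhibitory G proteins. In the hippocampus it is best known from GABAergic interneurons of the hilus and as a peptide that rises in granule cells and their mossy fibers after seizures. Y1 is mostly a somatodendritic receptor, Y2 is mostly a presynaptic receptor that lowers transmitter release and also acts as the autoreceptor of Npy neurons, and Y5 is a further receptor whose gene lies beside that of Y1.

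On GRCm38, the build named mm10 that the counts use, Npy lies on chr6:49822710-49829507 (plus strand) with 4 exons, and Npy2r on chr3:82538383-82548084 (minus strand). Npy1r (chr8:66697192-66706792, plus strand) and Npy5r (chr8:66679965-66688128, minus strand) stand head to head with 9063 bases between them. No exon of another annotated gene overlapped an exon of any of the 4 genes. The mature peptide is the part of Npy that the receptors bind, so its coding bases are shown. They begin in exon 2 and end in exon 3 (chr6:49823682-49827501, with an intron between), capitals mark the codons of the 36 residues of the peptide, residues 29 to 64 of 97, and the lower case end codes the residues at which the precursor is cut and amidated.

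Npy mature peptide, coding strand: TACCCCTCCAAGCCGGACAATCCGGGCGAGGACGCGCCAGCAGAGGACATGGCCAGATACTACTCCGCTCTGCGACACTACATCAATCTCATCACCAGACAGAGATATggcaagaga

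Npy and Npy2r were the members called in FC mice, in opposite directions, and the 250 bases before their starts (RefSeq, GRCm38.p6) are shown for that reason, at chr6:49822460-49822709 on the plus strand for Npy and chr3:82548086-82548335 on the minus strand for Npy2r. Capitals mark matches to the motifs searched on both strands.

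Npy: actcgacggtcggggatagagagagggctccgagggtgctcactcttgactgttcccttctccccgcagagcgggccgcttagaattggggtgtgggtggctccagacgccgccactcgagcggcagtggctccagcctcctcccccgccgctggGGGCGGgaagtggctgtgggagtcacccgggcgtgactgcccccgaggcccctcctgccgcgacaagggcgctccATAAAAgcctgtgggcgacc

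Npy2r: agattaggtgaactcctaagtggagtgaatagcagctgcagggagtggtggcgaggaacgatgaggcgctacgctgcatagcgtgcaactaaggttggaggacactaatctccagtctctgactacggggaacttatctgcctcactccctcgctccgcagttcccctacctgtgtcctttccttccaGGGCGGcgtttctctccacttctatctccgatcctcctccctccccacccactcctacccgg

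Both windows held 1 GC box (GGGCGG), first base 95 before the start of Npy and 62 before that of Npy2r, and 32.7% of 32851 windows of this length hold this motif. The Npy window also held a TATA-like ATAAAA with its first base 20 before the start (17.0% of windows). The full cyclic AMP response element TGACGTCA (1.55% of windows) and its inner part TGACG (17.8%) matched in none of the 4 members' windows, the AP-1 site TGANTCA (6.75%) matched once in that of Npy1r, and the E-box CACGTG (6.02%) once in that of Npy5r. The inner part lies within the full element, and a match is a description of these letters only.

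Between 1352288 and 18394761 reads per library were counted on genes (median 8013005), and FC dVenus+ libraries held the lowest total. Arc was higher in the dVenus+ library in 19 of 19 mice, which only checks the labels, since its promoter chose the cells. All NS and HC libraries belong to 1 series of sample IDs and the FC libraries to 3 others, so conditioning and series cannot be told apart between FC and the other mice.

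The ligand Npy was the member called higher in dVenus+ cells. It was higher in dVenus+ than in dVenus- cells in 10 of 12 FC mice, in 3 of 4 NS mice and in 3 of 3 HC mice, and only in FC was it called by edgeR. In normalized CPM (a library's counts on genes scaled to a common total, then by TMM factors, which align the typical gene between libraries), the FC dVenus+ libraries held 15.3 in mouse 01, 90.8 in mouse 03, 0 in mouse 04, 66.5 in mouse 05, 18.6 in mouse 06, 306 in mouse 07, 86.4 in mouse 09, 10.3 in mouse 10, 246 in mouse 11, 14.1 in mouse 12, 81.0 in mouse 13 and 3.49 in mouse 14. The FC dVenus- libraries held 0 in mice 01, 03, 04, 05, 06 and 14, 0.168 in mouse 11, 0.319 in mouse 12, 0.0785 in mouse 13, 27.6 in mouse 07, 50.0 in mouse 09 and 267 in mouse 10. Thus 11 of 12 dVenus+ libraries had at least 10 Npy counts against 3 of 12 dVenus- libraries, but the groups overlapped, since mice 07, 09 and 10 had Npy in their dVenus- cells and mouse 04 had none in either library. The 6 dVenus- libraries without an Npy count allow, at 3 counts, levels of up to 0.192 to 0.627 CPM, by counting error only.

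The mean level of Npy was 78.2 ± 99.2 CPM in FC dVenus+ cells (SD, n = 12, median 42.6) and 28.8 ± 76.6 in FC dVenus- cells (median 0.0392). With the mouse as block, edgeR's quasi-likelihood test gave a log2 fold change of 5.18 ± 1.17 (SE) and an adjusted p of 0.00842 over 9709 genes. The fit within mice called 2 of the 3 members tested in FC, Npy as higher and Npy2r as lower, while 4.35% of all genes tested were called, 1.50% higher and 2.84% lower. In a pool of 10 cells, more cells expressing a gene and more RNA per cell cannot be told apart.

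Mouse 10 moved the dVenus- mean of Npy most. Its dVenus- library held 5506 Npy counts, the most of any library, and it was the only FC mouse with a lower value in dVenus+ cells. The same library had the highest sum of 10 interneuron markers of all 38 libraries, 2415 CPM against 32.4 to 397 (median 142) in the 11 other FC dVenus- libraries. It held 32261 counts of Gad1 and 9219 of Gad2, which make GABA, 4754 of Pvalb and 2650 of Lhx6. Slc32a1 had 349 counts there, Nos1 263, Reln 179 and Dlx1 150, while Sst had 1 and Vip 0. In the NS dVenus- library of mouse 18 the markers summed to 1334 CPM, with 0 counts of Npy. Without mouse 10 the FC dVenus- mean of Npy fell to 7.11 ± 16.5 CPM (n = 11), the dVenus+ mean was 84.4 ± 102, and the log2 fold change within mice was 6.24 with an adjusted p of 0.00103. Without the mouse as block the log2 fold change over the 12 mice was 1.32 (adjusted p = 0.461) and no longer called. Without both the block and mouse 10 it was 3.54 (adjusted p = 0.0231) and called, with both libraries of that mouse left out. That fit was chosen after values were seen and removes the only FC pair with the opposite direction, so its call adds no support. The adjusted p of Npy in FC over all alternatives ran from 3.27e-12 (DESeq2, which called 17.0% of genes) to 0.461 (no block).

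**Figure D1:**
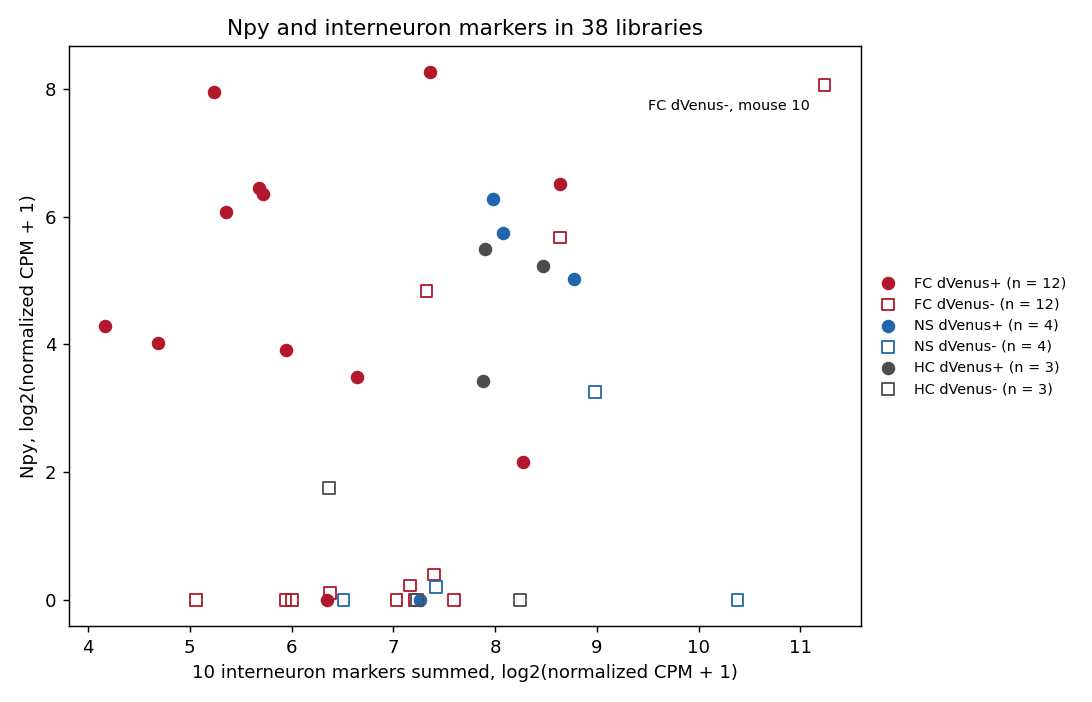
Npy (vertical) against the sum of 10 interneuron markers (horizontal), both as log2(normalized CPM + 1), with 1 point per library, filled circles for dVenus+, open squares for dVenus-, and colors for FC, NS and HC. The FC dVenus- library of mouse 10 stands alone at the upper right with 2415 CPM of markers and 267 CPM of Npy, while FC dVenus+ libraries reach 306 CPM of Npy at marker sums between 17.0 and 399 CPM.

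In FC mice the marker sum had the lower median where Npy had the higher one. In dVenus+ libraries it ran from 17.0 to 399 CPM with a median of 56.0, and in dVenus- libraries from 32.4 to 2415 with a median of 145. Gad1 weighed most in the dVenus- sums, with a mean of 212 CPM against 32.9 in dVenus+ libraries, mouse 10 included. Gad2 had means of 70.2 in dVenus- and 47.0 in dVenus+ libraries, and Slc32a1 1.41 and 0.630. The sum thus largely follows Gad1, and the part of interneuron RNA in the values of Npy was not tested. Of the 4 interneuron markers that passed the count filter in FC, 1 was called, Gad1 as lower in dVenus+ cells (log2 fold change -2.03, adjusted p = 0.0412). Gad2 (0.39, adjusted p = 0.875), Pvalb (-0.97, adjusted p = 0.753) and Lhx6 (-0.50, adjusted p = 0.835) were not. Single interneuron peptides were high in single FC dVenus+ libraries, with 274 counts of Sst in mouse 07, the library with the highest Npy CPM of all, and 373 counts of Vip in mouse 14, one of the lowest in Npy. The dVenus+ library of mouse 11, with 246 CPM of Npy, held 1 count of Sst and 0 of Vip. It also held 446 counts of Gad1, 135 of Nos1, 17 of Lhx6, 13 of Gad2 and 11 of Pvalb. Outside FC, 134 counts of Sst came with 0 of Npy in NS dVenus+ mouse 20, and 272 with 43.9 CPM of Npy in HC dVenus+ mouse 17. All 10 markers had a count in some FC dVenus+ library, and 9 of them, all but Vip, in some FC dVenus- library. Of 3 microglial markers tested in FC, 1 was called, Csf1r as higher in dVenus+ cells (4.51, adjusted p = 0.0188), while Cx3cr1 (2.38, adjusted p = 0.145) and P2ry12 (0.95, adjusted p = 0.825) were not. The 4 listed markers summed to 6.52 to 854 CPM in dVenus+ libraries with a median of 62.1, against 0.616 to 194 CPM with a median of 10.1 in dVenus- libraries, and their part in the result was not tested.

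In NS mice, Npy read 52.9, 31.6, 0 and 76.3 CPM in the dVenus+ libraries of mice 18, 19, 20 and 21, and 0, 8.54, 0.147 and 0 in their dVenus- libraries. In HC mice, it read 9.74, 36.6 and 43.9 CPM in the dVenus+ libraries of mice 15, 16 and 17, and 0, 0 and 2.36 in their dVenus- libraries. All dVenus+ libraries but that of mouse 20 lay above every dVenus- library of these mice, and HC groups, with 3 libraries each, did not overlap. How many of all genes separate in this way was not counted. In HC mice Npy1r separated too, as did the sum of 4 astrocyte markers (943 to 1265 against 99.0 to 424 CPM). The log2 fold changes were 4.80 ± 2.16 in NS and 5.20 ± 2.09 in HC mice, and neither was called (adjusted p = 0.553 and 0.677 with edgeR). Without mouse 17 the HC value went to 9.46. No member was among the 4 of 8187 genes called in NS (0.0489%), and in HC 0% of 7588 genes were called, with 532, Npy among them, at an unadjusted p under 0.05 (0.0276 for Npy).

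Other cells' markers were read in these mice too. The interneuron sum had a median of 260 CPM in NS dVenus+ and 337 in NS dVenus- libraries, and of 238 in HC dVenus+ and 149 in HC dVenus- libraries, so in HC mice it was higher where Npy was. The microglial sum had a median of 167 CPM in NS dVenus+ against 23.3 in NS dVenus- libraries, and 432 against 191 in HC mice. Astrocyte markers summed to a median of 937 CPM in NS dVenus+ against 851 in NS dVenus- libraries, and 953 against 264 in HC mice. For mossy cell markers the medians were 2.30 against 3.84 CPM in NS and 9.91 against 0.413 in HC mice. Oligodendrocyte markers were lower in dVenus+ libraries, with 1253 against 1962 CPM in NS and 1223 against 1937 in HC mice. Of these lists 0 genes were called in NS or HC mice, and their part in the values of Npy was not tested.

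DESeq2 called Npy in both small groups, with 5.97 in NS (adjusted p = 0.0493) and 7.83 in HC (adjusted p = 0.0105), where it called 8.20% and 8.24% of genes, 4.24% and 4.63% as higher. Over the alternatives the adjusted p of Npy ran from 0.0493 to 1 in NS and from 0.0105 to 0.984 in HC. The NS and HC mice fitted together, an alternative chosen after values were seen, gave 4.78 ± 1.39 (adjusted p = 0.0967, where 0.757% of genes were called), and all 19 mice fitted together gave 5.14 ± 0.90 (adjusted p = 0.000402, with 3.56% of genes called, 1.54% as higher). Npy was higher in dVenus+ cells in 16 of 19 mice.

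The differences between groups were tested in 1 fit of all libraries. The dVenus log2 fold change of Npy was 0.11 ± 2.47 larger in FC than in NS mice (adjusted p = 1) and differed by -0.24 ± 2.77 between FC and HC mice (adjusted p = 1), so neither difference exceeded its error. No gene passed these tests (0% of 14075 by edgeR, with 1152 and 1304 at an unadjusted p under 0.05, and 1206 and 1565 called by DESeq2). By sample ID series, Npy was higher in dVenus+ cells in 2 of 2, 3 of 4 and 5 of 6 FC mice and in 6 of 7 NS and HC mice. Fitted alone, the FC series of 4 and of 6 mice gave 5.03 (adjusted p = 0.304) and 3.76 (adjusted p = 0.459), in the same direction but not called.

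**Figure D2:**
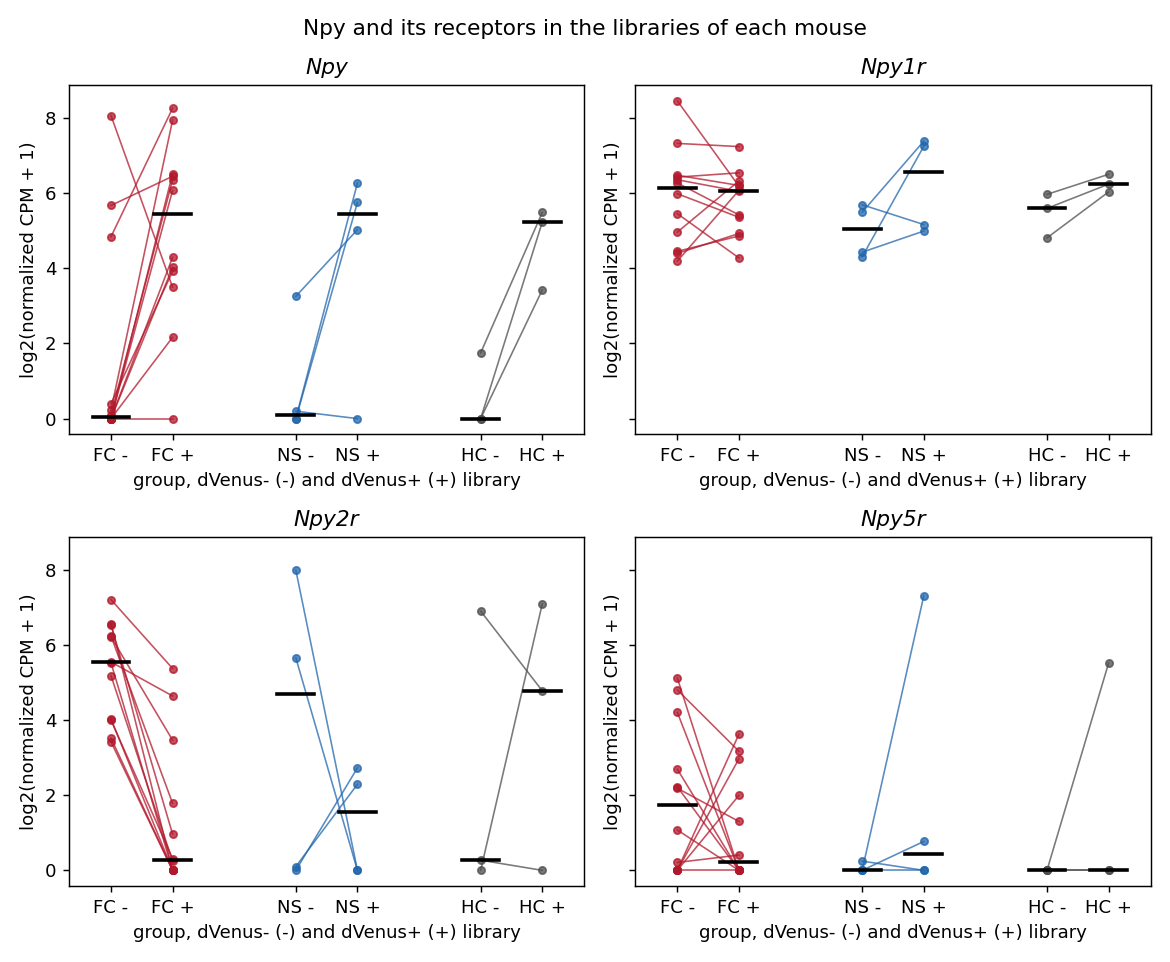
Level of each member as log2(normalized CPM + 1) in the dVenus- (-) and dVenus+ (+) libraries of FC, NS and HC mice, with a line joining the libraries of 1 mouse and a black bar for the group median. Npy climbs in 10 of 12 FC, 3 of 4 NS and 3 of 3 HC mice, and Npy2r drops in 12 of 12 FC mice with no common direction in NS and HC mice.

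The presynaptic receptor Npy2r went the other way. It was lower in the dVenus+ library in 12 of 12 FC mice, and in NS and HC mice it took no common direction. The FC dVenus+ libraries held 0 CPM in mice 01, 04, 05, 06 and 09, 0.186 in mouse 07, 0.242 in mouse 12, 0.951 in mouse 14, 2.44 in mouse 03, 10.0 in mouse 10, 23.9 in mouse 13 and 40.4 in mouse 11. The FC dVenus- libraries ran from 9.71 in mouse 05 to 147 in mouse 11 (median 45.4) and all 12 had at least 10 counts, against 3 of 12 dVenus+ libraries. The groups overlapped only through the dVenus+ libraries of mice 10, 11 and 13, the highest of their group, and the dVenus- libraries of mice 04, 05, 06, 07 and 12, the lowest of theirs.

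The mean of Npy2r was 6.52 ± 12.8 CPM in FC dVenus+ (SD, n = 12, median 0.214) and 54.7 ± 42.3 in FC dVenus- cells. The log2 fold change was -4.41 ± 0.79 with an adjusted p of 0.000795 (edgeR), and it stayed called with each mouse left out in turn (-5.08 to -4.12) and without the block (-2.85, adjusted p = 0.0149). Over all alternatives its adjusted p ran from 1.20e-12 (DESeq2) to 0.304 (4 mice). The 5 dVenus+ libraries at 0 allow up to 0.289 to 1.85 CPM at 3 counts. In the FC series of 4 and of 6 mice alone it was -8.47 (adjusted p = 0.304) and -3.23 (adjusted p = 0.149), lower in every mouse of each FC series and not called at these sizes.

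Granule cell markers lay below 0 like Npy2r in FC mice. All 7 markers had a log2 fold change below 0 in FC (median -1.49, against -0.11 over all genes tested), and 3 of them were called lower, beside 2.84% of all genes, the calcium buffer Calb1 (-3.01, adjusted p = 0.000554), the secreted synaptic protein C1ql2 (-2.02, adjusted p = 0.0128) and Stxbp6 (-1.36, adjusted p = 0.0436). Their summed level ran from 81.9 to 1180 CPM in FC dVenus+ libraries and from 673 to 2206 in dVenus- libraries, with none of the 7 at 0 in every library of either group. The granule cell marker Prox1 read a mean of 104 CPM in FC dVenus+ and 113 in dVenus- cells (-0.77, adjusted p = 0.477). Its means lay further apart in NS mice, at 21.8 CPM in dVenus+ and 150 in dVenus- cells (-2.94, adjusted p = 0.510). The HC means were 17.4 and 75.8 CPM (-2.40, adjusted p = 0.739), and Prox1 was called in no group. In NS mice 5 of 6 tested granule cell markers lay below 0 (median -1.35) and in HC mice 6 of 6 (median -1.36), with 0 called in either, and Npy2r took no common direction there. The part of these markers in the result on Npy2r was not tested.

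Npy2r read 5.63, 0, 3.89 and 0 CPM in the NS dVenus+ libraries of mice 18, 19, 20 and 21, and 0, 253, 0.0733 and 49.4 in their dVenus- libraries. In HC mice 15, 16 and 17 it read 26.4, 0 and 136 CPM in dVenus+ and 118, 0.207 and 0 in dVenus- libraries. Each NS mouse had the receptor at 10 or more counts in 1 of its 2 libraries only, mice 18 and 20 in dVenus+ and mice 19 and 21 in dVenus- cells, and the groups overlapped in both NS and HC mice. The log2 fold change was -2.60 ± 2.38 in NS (adjusted p = 0.765) and 1.78 ± 4.36 in HC mice (adjusted p = 0.929). Leaving out mouse 19 turned the NS value to 0.19, and leaving out mouse 17 turned the HC value to -2.42, so neither has a settled direction.

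The dVenus difference of Npy2r was -2.07 ± 2.43 between FC and NS (adjusted p = 0.877) and -6.28 ± 3.13 between FC and HC mice (unadjusted p = 0.0524, adjusted p = 0.540, edgeR over 14075 genes). Thus the fall in FC mice was not shown to differ from the values in NS or HC mice. All 19 mice together gave -3.39 ± 0.89 (adjusted p = 0.0227), beside 2.02% of genes called lower. Npy2r was lower in dVenus+ cells in 16 of 19 mice, namely 12 of 12 FC, 2 of 4 NS and 2 of 3 HC mice. For HC mouse 16 this rests on 0 against 1 count. The 7 NS and HC mice together gave -1.24 ± 2.03 (adjusted p = 0.815). Between NS and HC mice, Npy2r in dVenus+ cells was lower in NS (-4.40 ± 1.65, unadjusted p = 0.0151, adjusted p = 0.489), and no gene was called there (0% of 8706, 773 at an unadjusted p under 0.05, 110 by DESeq2). In dVenus- cells no gene was called either (0% of 8547, 756 at an unadjusted p under 0.05, 144 by DESeq2).

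**Figure D3:**
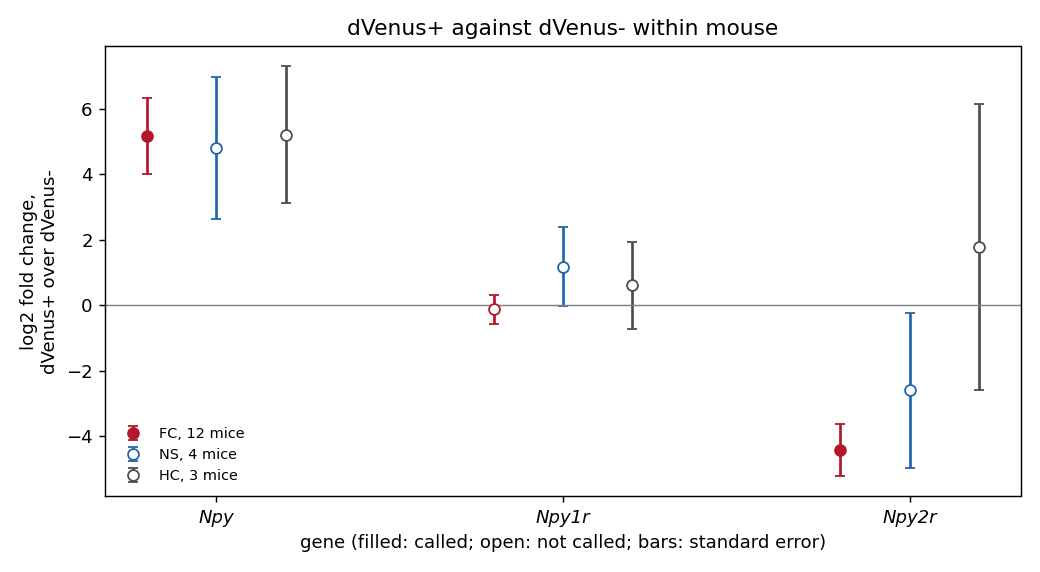
Log2 fold change of dVenus+ over dVenus- cells (vertical) for Npy, Npy1r and Npy2r in FC, NS and HC mice, with standard errors as bars, filled points for called genes and open points for genes not called. Npy lies at 5.18 in FC, at 4.80 in NS and at 5.20 in HC, and Npy1r at -0.13 in FC, and Npy2r goes from -4.41 in FC through -2.60 in NS to 1.78 in HC mice. For each gene the bars are wider in NS and HC than in FC mice.

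The receptor Npy1r was present throughout. It reached at least 10 counts in 38 of 38 libraries, which no other member did. In FC dVenus+ libraries it ran from 18.4 to 150 CPM, with a median of 65.8 and a mean of 63.0 ± 36.0. The FC dVenus- libraries spanned 17.3 to 351 CPM, with a median of 69.4 and a mean of 86.2 ± 92.7. These ranges overlapped almost wholly, with the highest value, 351 CPM in the dVenus- library of mouse 12, far above the next, 159 in that of mouse 09. It was higher in dVenus+ cells in 5 of 12 mice, and the log2 fold change was -0.13 ± 0.44 (adjusted p = 0.927).

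In NS mice Npy1r read 30.8, 166, 151 and 34.9 CPM in the dVenus+ libraries of mice 18, 19, 20 and 21, and 20.5, 44.0, 18.8 and 50.7 in their dVenus- libraries. In HC mice it read 89.6, 64.5 and 74.6 CPM in dVenus+ and 61.6, 27.1 and 47.3 in dVenus- libraries of mice 15, 16 and 17. Mice 19 and 20 were high in NS dVenus+ cells while the other NS libraries overlapped, and in HC mice the dVenus+ values all lay above the dVenus- values by less than the error of the fit. The log2 fold changes were 1.18 ± 1.21 in NS (adjusted p = 0.793, higher in 3 of 4 mice) and 0.61 ± 1.34 in HC mice (adjusted p = 0.920, higher in 3 of 3 mice). The difference of the dVenus effect between FC and NS was -1.35 ± 0.94 (adjusted p = 0.735) and between FC and HC -0.92 ± 0.98 (adjusted p = 0.821).

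Npy5r was the rarest member and passed the count filter in no group. It had at least 10 counts in 13 of 38 libraries. In FC these were 4 dVenus+ libraries, with 2.99 CPM in mouse 06, 6.82 in mouse 11, 8.00 in mouse 05 and 11.3 in mouse 10, and 7 dVenus- libraries, with 1.11 in mouse 07, 3.55 in mouse 03, 3.67 in mouse 09, 5.47 in mouse 01, 17.4 in mouse 14, 26.9 in mouse 05 and 33.8 in mouse 12. The groups overlapped, and a fit without the count filter gave a log2 fold change of -0.88 ± 1.29 in FC mice (adjusted p = 0.839 over 18089 genes).

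Outside FC, Npy5r was seen at 10 counts or more in 1 NS library, the dVenus+ cells of mouse 20 with 726 counts or 157 CPM, and in 1 HC library, the dVenus+ cells of mouse 16 with 93 counts or 44.8 CPM. The other 3 NS dVenus+ libraries held 0.704, 0 and 0 CPM and the other HC dVenus+ libraries held 0. The NS dVenus- libraries held 1 count in all and the HC dVenus- libraries none, so no fold change is given, and the fits without the filter did not call it (adjusted p = 0.696 in NS and 0.533 in HC). The NS dVenus+ library of mouse 20, alone of its group, lacked Npy and had the highest Npy5r of any library.

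Levels were compared between members per kilobase of exon, with 566 exon bases for Npy, 3454 for Npy1r, 3383 for Npy2r and 2555 for Npy5r. In FC dVenus+ cells the mean level was 138 ± 175 CPM per kb for Npy, 18.2 ± 10.4 for Npy1r, 1.93 ± 3.79 for Npy2r and 1.01 ± 1.54 for Npy5r. In FC dVenus- cells it was 50.8 ± 135 for Npy (median 0.0693), 24.9 ± 26.8 for Npy1r (median 20.1), 16.2 ± 12.5 for Npy2r (median 13.4) and 3.00 ± 4.60 for Npy5r (median 0.911). By the medians, the ligand stood first in dVenus+ cells and last in dVenus- cells, and the receptors kept the order Npy1r, Npy2r, Npy5r in dVenus- cells, where the first pair differed by less than the SD of either. In FC dVenus+ cells the medians of Npy2r (0.0632) and Npy5r (0.0637) could not be told apart.

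In the other groups Npy read 71.0 ± 57.3 CPM per kb in NS and 53.1 ± 31.8 in HC dVenus+ cells, and 3.84 ± 7.50 and 1.39 ± 2.41 in their dVenus- cells. Npy1r read 27.7 ± 21.1 and 22.1 ± 3.66 in NS and HC dVenus+ cells and 9.70 ± 4.70 and 13.1 ± 5.03 in their dVenus- cells. By mean, the order of the groups for Npy was FC, NS and HC dVenus+ and then FC, NS and HC dVenus-, and neighbors in that order differed by less than the larger SD of the pair.

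Because each library pools 10 cells, presence of Npy and Npy2r together does not place them in 1 cell. At 10 counts or more, 10 of 38 libraries held both, 12 held Npy without Npy2r, 12 held Npy2r without Npy and 4 held neither. Among FC dVenus+ libraries 3 held both, 8 held Npy only, 0 held Npy2r only and 1 neither, whereas among FC dVenus- libraries 3 held both, 9 held Npy2r only and 0 held Npy only. The 3 libraries with the rarer gene were those of mice 10, 11 and 13 in FC dVenus+ and of mice 07, 09 and 10 in FC dVenus- cells. That they also held the commoner gene was fixed in dVenus- cells, where 12 of 12 libraries held Npy2r. In dVenus+ cells 11 of 12 libraries held Npy, which left little room for another outcome.

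**Figure D4:**
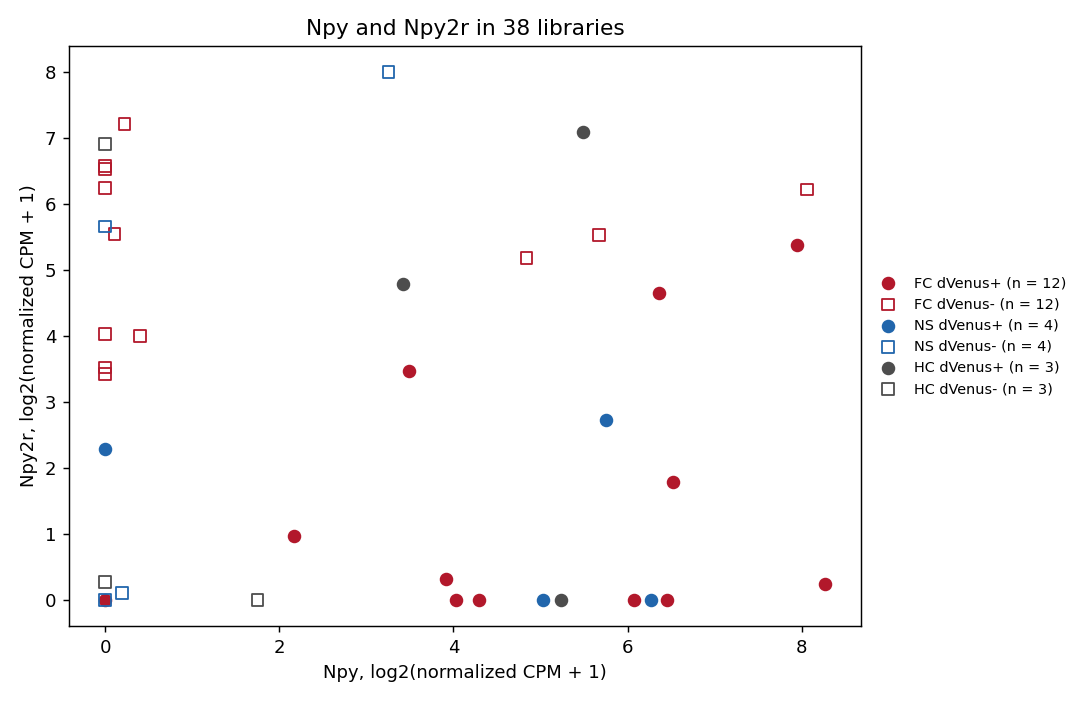
Npy2r (vertical) against Npy (horizontal) as log2(normalized CPM + 1) in 38 libraries, with filled circles for dVenus+, open squares for dVenus-, and colors for FC, NS and HC. FC dVenus- libraries line the left edge at Npy2r levels of 9.71 to 147 CPM, apart from mice 07, 09 and 10, and FC dVenus+ libraries lie along the bottom, apart from mice 10, 11 and 13.

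Across the 38 libraries the Spearman correlation of Npy with Npy2r was -0.21, of Npy with Npy1r 0.12, and of the neighboring genes Npy1r and Npy5r 0.34. Npy and Arc had 0.61 and Npy2r and Arc -0.39, as descriptions only, because the libraries share mice and were sorted by the Arc promoter. Among 11263 genes the patterns most like that of Npy were those of Samd4 (0.65), the kinase gene Sgk1 (0.65), Ccdc47 (0.64), the glycoprotein gene Gpnmb (0.62) and Tbc1d9 (0.61). Those most like Npy2r were Scnn1a, a subunit of the epithelial sodium channel (0.76), Scn3b, a beta subunit of voltage-gated sodium channels (0.73), Syt16 (0.71), Mycl1 (0.70) and Tmem132a (0.70). For Npy1r the likest pattern was that of Nf1, a regulator of Ras (0.59), and for Npy5r that of Fnip2 (0.66), each over 38 libraries.

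The relatives of Npy and the enzymes that process it were read from a list of 10 genes. The ligands Pyy and Ppy and the receptors Npy4r and Npy6r had no count in any of the 38 libraries. Of the 3 genes of the list that passed the count filter in FC, 0 were called, namely Pcsk2, a convertase that cuts precursors (0.81, adjusted p = 0.365), Cpe, the carboxypeptidase that trims them (0.40, adjusted p = 0.653), and Pam, the amidating enzyme (0.11, adjusted p = 0.947). Their median log2 fold change was 0.40, against -0.11 over all genes. The other convertase, Pcsk1, had at least 10 counts in 8 libraries, too few for the test, with a mean of 11.9 CPM in FC dVenus+ and 1.10 in FC dVenus- cells. In NS and HC mice 0 of 3 tested genes of this list were called.

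Y receptors act through inhibitory G proteins on adenylyl cyclases, potassium channels and calcium channels, and 22 genes of this machinery, with regulators and arrestins, formed the second list. In FC mice 20 were tested, of which 2 were called higher and 1 lower, beside 1.50% and 2.84% of all genes tested, and 6 had a log2 fold change above 0 and 14 below it (median -1.08, against -0.11 over all genes). The calcium-stimulated cyclases Adcy8 and Adcy1 went opposite ways in FC mice. Adcy8 had a mean of 143 CPM (SD 341) in dVenus+ and 9.60 (SD 13.9) in dVenus- cells (3.73 ± 0.83, adjusted p = 0.00768). Its dVenus+ SD exceeded the mean, and it had at least 10 counts in 23 of 38 libraries. Adcy1 stood at 128 (SD 61.7) and 422 CPM (SD 214) (-1.65 ± 0.36, adjusted p = 0.00768). Rgs7, which speeds the shut-off of inhibitory G proteins, was higher at 235 (SD 184) against 84.9 CPM (SD 90.7) (1.83 ± 0.52, adjusted p = 0.0391). The G protein subunits Gnai1, Gnai2, Gnai3, Gnao1 and Gnaz were not called, with log2 fold changes from -2.50 for Gnai3 to 0.56 for Gnao1, nor were the potassium channel genes Kcnj3, Kcnj6 and Kcnj9 (-1.12, -0.44 and -1.55). In NS mice 0 of 18 and in HC mice 0 of 17 tested genes were called, with medians of 1.46 and -0.10 against 0.08 and 0.02 over all genes. Directions seen in FC were not kept throughout. Adcy8 had a log2 fold change of 2.34 in NS and -3.13 in HC mice, Adcy1 -0.15 and -1.38, and Rgs7 -0.66 and 1.17.

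**Figure D5:**
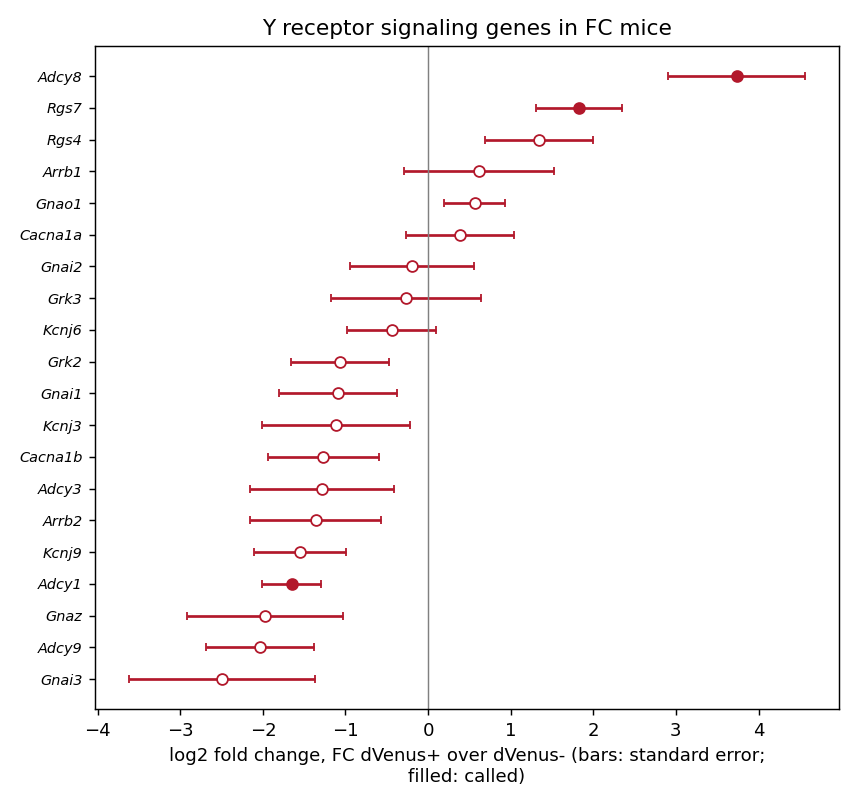
Log2 fold change of FC dVenus+ over dVenus- cells (horizontal) for the 20 tested genes of Y receptor signaling, ordered by value, with standard errors as bars and filled points for the 3 called genes. Adcy8 and Rgs7 lie to the right at 3.73 and 1.83 and Adcy1 to the left at -1.65, and 14 of the 20 genes lie below 0.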

How the data were processed

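Full-length cDNA of 10 pooled cells per library (SmartSeq2) was sequenced as single reads, and the authors left out libraries that failed quality control together with their partner. Per the submitters' processing notes and the study's methods, the authors aligned reads to mm10 with TopHat2 2.0.13 and counted unique alignments on NCBI transcripts with HTSeq 0.6.0. The deposited values are raw counts per gene, without normalization. The 5 entries that name no gene were left out, and reads outside genes came to 16.4% to 59.7%. Columns of authors' comparisons and the joint table were not used. Totals of 1352288 to 18394761 counts per library set the precision, and limits for a gene at 0 (3 counts) cover counting error only.

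Libraries were grouped by title and characteristics. In 10 NS and HC libraries the description field carries another sample ID, and it was ignored. Both libraries of a mouse come from 1 animal and form a pair. Their deviations from the group means had a median correlation of 0.0239 (range -0.0649 to 0.237, 2 of 19 pairs over 0.1).

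Counts were tested with edgeR 4.0.16 in R 4.3.3 (TMM, quasi-likelihood F test, mouse as block, each group in its own fit, two-sided) over genes reaching 10 counts in no fewer than 12 (FC), 4 (NS) or 3 libraries (HC, and fits across groups). A gene was called at an adjusted p (Benjamini-Hochberg) under 0.05 and an absolute log2 fold change over 1, and by adjusted p alone for differences between groups. The SE is the log2 fold change divided by the root of the F statistic. Npy5r was read from fits without the filter. Log2 CPM used a prior count of 2. The current quasi-likelihood method of edgeR was taken as main after its default, an older method, had been seen to call fewer genes, and the older method is an alternative. Other alternatives were DESeq2 1.42.0 (size factors, Wald test), other count filters, no block, subsets of FC mice and leaving out each mouse, and the fits of several groups together and of no block without mouse 10 were chosen after values were seen. The code was tested on simulated data. Exon lengths are those of GENCODE M21, and 4 of 4 members matched RefSeq promoters (GRCm38.p6). The members and gene lists were chosen with earlier results of these data known. Genes of the signaling list were named if called, or by role. Older symbols stand in the counts for Npy4r (Ppyr1), Grk2 (Adrbk1) and Grk3 (Adrbk2).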

Additional observations from a re-analysis of the deposited data

Results flagged for a closer look

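Among 8 groups of 4 NS libraries tested, 3 held a highest library that stood apart from the other 3 by Dixon's criterion. Its chance rate of about 1 in 20 holds for normally distributed values and not for groups with libraries at 0, such as these. Where all other libraries of a group are at 0, any count meets it, so the number of flags cannot be set against that rate. Npy5r read 157 CPM in the NS dVenus+ library of mouse 20 against at most 0.704 CPM in the others, a library whose Npy count was 0. Npy read 8.54 CPM (46 counts) in the NS dVenus- library of mouse 19, against at most 0.147 CPM in the other NS dVenus- libraries, and the same library held the highest Npy2r of all libraries, 253 CPM. Npy5r read 0.186 CPM in that library too, which is 1 count and lies under the 3 counts set as the floor.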

How the results depend on the processing

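Of 329 values recomputed under an alternative setting, 285 kept their direction and their side of the threshold, or for counts of genes stayed within 1.5 times. Where one did not, the cause was not tested unless stated. In FC mice 422 genes were called, against 1651 with DESeq2's Wald test, 137 with the older quasi-likelihood method, 12 and 15 in the series of 4 and of 6 mice alone, and 249 without the 2 mice of lowest library totals (03 and 12), where fewer samples entered. With no replicate block, so without pairing the libraries of a mouse, Npy in FC went to 1.32 and was not called. Without mouse 10 as well, in a fit chosen after values were seen, it was 3.54 and called. In NS 13 genes were called without the block in place of 4. The block changed no other call of a member. The series of 4 and of 6 mice gave 5.03 and 3.76 for Npy and -8.47 and -3.23 for Npy2r, not called. Npy1r in FC turned to 0.050 without the 2 mice of lowest totals and ran from -0.30 to 0.056 with each mouse left out, turning without mouse 12. In NS 11 genes were called with DESeq2's size factors, 1 with no count filter, 671 with DESeq2's Wald test, 0 with the older method and 0 to 2 with a mouse left out, and Npy2r ran from -5.10 to 0.19. DESeq2's Wald test called Npy in NS (5.97) and HC (7.83). In HC it called 625 genes, and the older method 2, while Npy2r went to -0.49 with DESeq2's Wald test and -0.14 with the older method, and from -2.42 to 2.20 with a mouse left out. For the dVenus difference DESeq2 called 1206 genes between FC and NS and 1565 between FC and HC, and Npy between FC and HC turned to 0.14 with DESeq2's size factors and 0.091 with the older method. Between NS and HC, DESeq2 called 110 genes in dVenus+ and 144 in dVenus- cells, and with a mouse left out 0 to 3 were called in dVenus- cells. With a mouse left out, the NS against HC values in dVenus+ cells ran from -0.12 to 0.86 for Npy, -0.11 to 0.59 for Npy1r and -5.24 to 10.6 for Npy5r, and that of Npy in dVenus- cells from -3.51 to 6.84.

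Pools of 10 cells and library totals differing by over 10 times limit every low value. In NS and HC mice 4 and 3 pairs carried the test, and a member whose filter left too few libraries without 1 mouse, such as Npy in NS without mouse 19, gave no value.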
